A study of Brassica rapa with 28 samples.

Results

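The comparison described here is that of darkened with unwrapped leaves in a Brassica rapa phytochrome B mutant. It used 6 of the 28 RNA-seq libraries of the series, namely the 3 dark and the 3 pre libraries of the BrphyB-3 line, matched by replicate number. Every plant of the series had the R-o-18 background. The mutant at 24hr and at recovery, and the wild type at all 4 stages, are used beside it. Plants were 3 weeks old at pre and grew under 16 h of light and 8 h of night, and all punches were taken at the same hour of the day, 5 h into the light period. Each library holds leaf punches of 28 mm2 pooled from 3 plants, so a replicate is a plant pool. The mutant had 3 pools, numbered 3 to 5, and the wild type had 4, numbered 3 to 6. Only 1 mutant line was sampled, so the mutation cannot be told apart from anything else that line carries.

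Phytochrome B is a red-light photoreceptor. Red light turns it into an active form that moves to the nucleus, where it leads to the removal of PIF transcription factors, which promote growth in the dark. In mature leaves of the related plant Arabidopsis thaliana, long darkness on a single leaf lowers transcripts of the photosynthetic apparatus and raises those of senescence and of the breakdown of amino acids and other reserves.

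The pre punch was taken from the first tagged leaf while the second was put under foil. The 24hr punch came from the open leaf 24 h later, and the dark punch from the foiled leaf 48 h after that, when 72 h had passed since pre. Recovery was sampled on that leaf 24 h after the foil came off. Dark and pre libraries of one pool therefore come from the same plants but from different leaves and days. Foil, leaf and the 72 h of added age cannot be told apart in this contrast.

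Total counts ran from 11141552 to 12091273 in the mutant pre libraries and from 7839529 to 11093994 in its dark libraries. The files do not pair gene IDs with names, and 0 of the 48826 IDs matched the RefSeq gene table, so genes are given by ID. The mutated gene, leaf markers and lists of photosynthesis, senescence, light and clock genes were not analysed here for that reason, and neither the genotype label nor the tissue was checked against the data.

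In the mutant, most of the genes tested changed between pre and dark. Of 24992 genes, 14560 passed (58.3%) by edgeR's quasi-likelihood test with the plant pool as a block and a Benjamini-Hochberg adjusted p under 0.05. Of these, 6996 were higher at dark (28.0% of those tested) and 7564 were lower (30.3%). With a change of at least 2-fold required as well, 11212 genes passed (44.9%). The median log2 fold change was 1.38 among the genes that rose and -1.91 among those that fell. It was 1.37 and -1.87 when the 105 called genes with no count at pre and the 236 with no count at dark were set to the bound that 3 counts per library allow. In bulk leaf tissue, fewer cells of a type and less RNA per cell cannot be told apart. All levels are relative to the other poly(A) RNA counted in the library, not to total RNA or cell number.

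The genes that rose held 17.5% of all counts at pre and 57.7% at dark, as the mean of 3 pools. Those that fell went from 59.6% to 16.5%. These shares describe genes chosen by the same contrast and are no separate support for it. A typical gene that rose, by the median, had 11 CPM (counts scaled by TMM library size) at pre and 28.5 CPM at dark. A typical gene that fell had 16.4 CPM at pre and 4.12 CPM at dark.

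**Figure D1:**
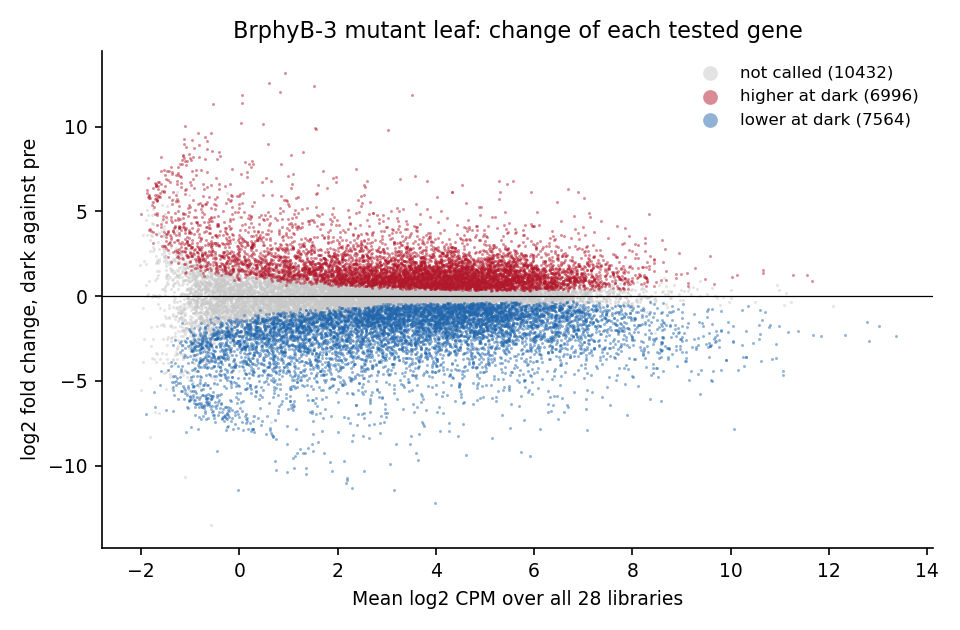
Log2 fold change of dark against pre in the BrphyB-3 mutant (vertical axis) against the mean log2 CPM over all 28 libraries (horizontal axis), 1 point per tested gene, with red for the 6996 genes called higher, blue for the 7564 called lower and grey for the 10432 not called. Called genes lie on both sides at every level, and blue points prevail among the genes of highest expression. Most of the libraries averaged are not dark ones, so the level is partly tied to the direction of change.

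Strong falls were more numerous than strong rises. With genes absent at one stage set to their bound, 1902 genes rose and 3513 fell by at least 4-fold, 375 rose and 782 fell by at least 16-fold, and 80 rose and 136 fell by at least 64-fold. Among the more highly expressed genes, those with a mean of at least 10 CPM over all libraries, 878 rose and 1672 fell by at least 4-fold. Most of those libraries are not dark ones, so a gene that fell passes this cut more easily than one that rose. Part of that excess of falls is thus built in. Strong falls were also more numerous than strong rises within each pool. In replicate 3, 2188 genes were at least 4-fold higher and 3558 at least 4-fold lower at dark, and the numbers were 1545 and 2751 in replicate 4 and 2247 and 4407 in replicate 5.

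The direction of the smaller changes rests on how libraries are scaled. When library totals replaced TMM factors, the median log2 fold change of all genes moved by 0.17, from -0.06 to 0.11, and the calls of any size then read 8029 higher and 6513 lower. Falls of at least 4-fold still outnumbered rises in that fit, with 3213 against 2275.

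**Figure D2:**
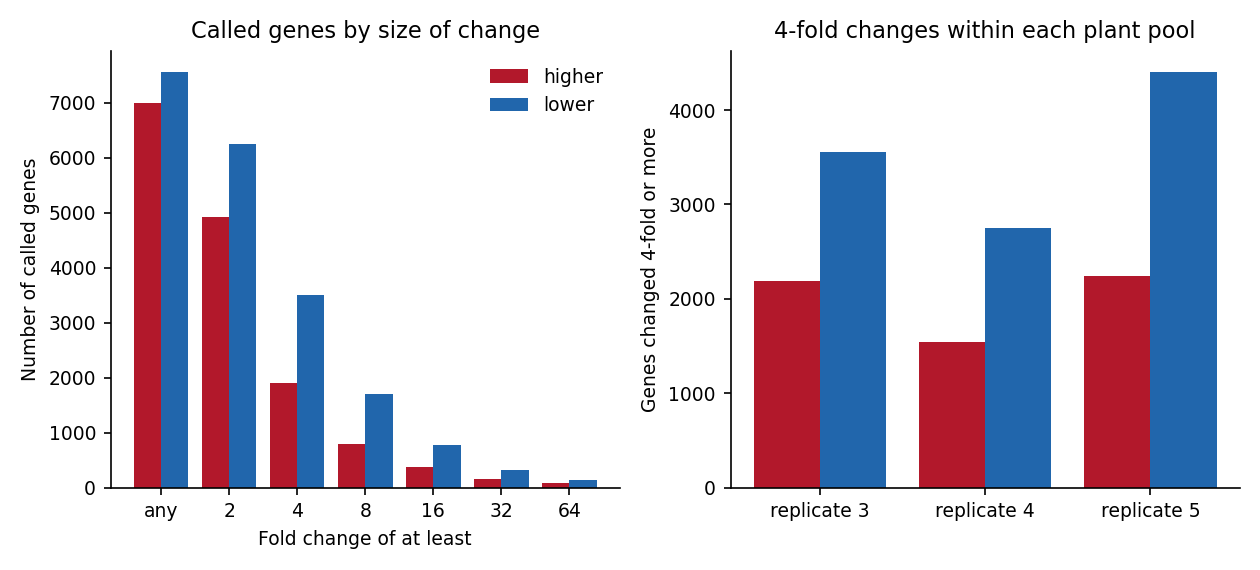
Left, number of genes called higher (red) and lower (blue) at dark by the smallest fold change required, with genes absent at one stage set to their bound. Right, number of tested genes that differed at least 4-fold between dark and pre within each mutant pool, called or not. Blue bars are taller than red bars in every class and in each of the 3 pools; with library totals as the scaling the calls of any size turn to 8029 higher and 6513 lower.

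The share of genes that changed depended on how highly they were expressed. Genes were split into 10 groups of equal size by their mean log2 CPM over all 28 libraries. In the lowest group, with a median of 0.619 CPM, 41.5% were called, and in the highest, with a median of 134 CPM, 73.3% were called. The median standard error of the log2 fold change was 0.95 in the lowest group and 0.23 in the highest, so low genes needed a larger change to pass. Rises and falls were not spread alike over the levels. In the ninth group, 38.6% of genes rose and 31.9% fell, whereas in the highest group 31.3% rose and 42.1% fell. In the second lowest group, 16.9% rose and 27.7% fell. Most of the 28 libraries are not dark ones, so a gene that fell tends to rank above one that rose between the same levels. Part of this split is thus built in by the ranking.

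The genes that held the most counts in the lit leaf lost most of them. Counts are not divided by gene length here, so the order of genes by count mixes transcript number with length. The 20 genes with most counts at pre held 8.95% of all counts at pre in replicate 3, 12.1% in replicate 4 and 14.8% in replicate 5. At dark the same genes held 3.52%, 4.49% and 1.98%. No dark library reached any pre library. The mean fall was -8.62 percentage points ± 3.78 (SD, n = 3), down in 3 of 3 pools, and the exact sign-flip permutation test (two-sided) gave p = 0.25, the smallest that 3 pools allow. Since those genes were picked at pre, part of a fall is built in. With the 20 genes that held most counts at 24hr, libraries outside the contrast, the fall was -8.37 percentage points.

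Of the 20 leading genes at pre, 18 fell, 15 of them by at least 4-fold, 1 rose and 1 did not pass, where 30.3% of all genes tested fell, 3631 of 24992 by at least 4-fold, and 28.0% rose. Their median log2 fold change was -2.34 against -0.06 over all genes tested. Of the 100 leading genes at pre, 85 fell, 5 rose and 10 did not pass, beside the same 30.3% and 28.0% over all genes. These lists were picked by their level at pre, which builds in part of the fall. The steepest fall among the 20 was that of the gene ranked 11 at pre, which had 3167, 4026 and 7473 CPM in replicates 3, 4 and 5 at pre and 20.1, 23.6 and 15.1 CPM at dark. Its log2 fold change was -7.86 (SE 0.57), and its rank by count was 8230 at dark. The 1 leading gene that rose was ranked 20 at pre, with 2610, 2913 and 2572 CPM, and 2 at dark, with 4988, 4488 and 5265 CPM.

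BraA08002753 held the most counts of any gene at pre and had the largest loss in CPM. It stood at 10929, 17804 and 24293 CPM in replicates 3, 4 and 5 at pre, and at 3518, 7345 and 263 CPM at dark. All 3 pools fell, but by unequal amounts: replicate 5 lost far more than the other two, with log2 changes of -1.64, -1.28 and -6.53 in replicates 3, 4 and 5. At 24hr it had stood at 10722, 16066 and 23172 CPM, close to pre in each pool. edgeR fitted a log2 fold change of -2.33 with an SE of 0.80 and an adjusted p of 0.018. Without mutant replicate 5 it was -1.44 and no longer passed (adjusted p 0.0752), nor did it pass when only the 6 libraries were fitted (-2.78, adjusted p 0.21). Over its 12 alternatives the adjusted p ran from 0.000838 to 0.21, where a fit with a prior count of 2 keeps the main value by design. Whether its reads are shared with near-identical copies is unknown.

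The leading genes of the dark leaf were largely other genes. Of the 20 with most counts at dark, 6 were among the 20 at pre, and of the 100 with most counts at dark, 29 were among the 100 at pre. Within single pools, 31, 34 and 21 of the 100 leading genes at pre were still among the leading 100 at dark in replicates 3, 4 and 5, whereas 91, 96 and 89 were at 24hr. The 24hr and dark comparisons share their pre libraries. Of the 20 leading genes at dark, 12 rose, 7 of them by at least 4-fold, 4 fell and 4 did not pass. Over all genes tested, 28.0% rose, 1938 of 24992 by at least 4-fold, and 30.3% fell. Picking genes by their level at dark builds in part of the rise.

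BraA03004557 had the largest gain in CPM. It had 58.4, 134 and 374 CPM at pre in replicates 3, 4 and 5 and 4729, 2403 and 4881 CPM at dark. All named genes were picked among called genes whose pools agreed in direction and whose stages did not overlap. Those traits and a passing main test were thus set by the choice and are no separate support. The mean of BraA03004557 went from 189 ± 165 to 4004 ± 1389 CPM (SD, n = 3 at each stage), 21.2-fold higher. edgeR fitted a log2 fold change of 4.86 with an SE of 0.82 and an adjusted p of 5.43e-05. In the wild type it went from 328 ± 243 to 3474 ± 449 CPM (SD, n = 4), and the difference between genotypes did not pass (edgeR adjusted p 0.767). The order of the pools at pre was also seen at 24hr, with 31.7, 172 and 219 CPM, and the gene was back to 84.0, 114 and 190 CPM at recovery. Another gene among the 20 leading ones at dark rose from a rank of 4874 to 12, with 17.2, 29.5 and 73.3 CPM at pre and 3220, 1577 and 3363 CPM at dark.

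The remaining pair of named genes had the largest fitted changes among those with at least 10 CPM at one stage. BraA07002742 had 39.8, 66.2 and 65.0 CPM at pre in replicates 3, 4 and 5, and 0 counts in all 3 dark libraries. Against a floor of 3 counts per library it was at least 194-fold lower at dark, with an edgeR adjusted p of 4.13e-08. At recovery it had 56.1, 68.7 and 27.2 CPM, and at 24hr 36.9, 26.5 and 64.2 CPM. The wild type had 85.9 ± 25.7 CPM (SD, n = 4) at pre and counts in only 1 of 4 dark libraries. BraA03003091 was its opposite, with 0 counts in all 3 pre libraries and 23.6, 118 and 205 CPM at dark. It was at least 442-fold higher at dark against the same floor, with an edgeR adjusted p of 8.58e-06. The wild type reached 228 ± 126 CPM (SD, n = 4) at dark, and the genotype difference did not pass (edgeR adjusted p 0.959). At 24hr, on the uncovered leaf, it was already present at 0.663, 0.204 and 2.09 CPM, from 8, 2 and 30 counts. With 24hr as the reference its fitted log2 fold change was 6.74.

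**Figure D3:**
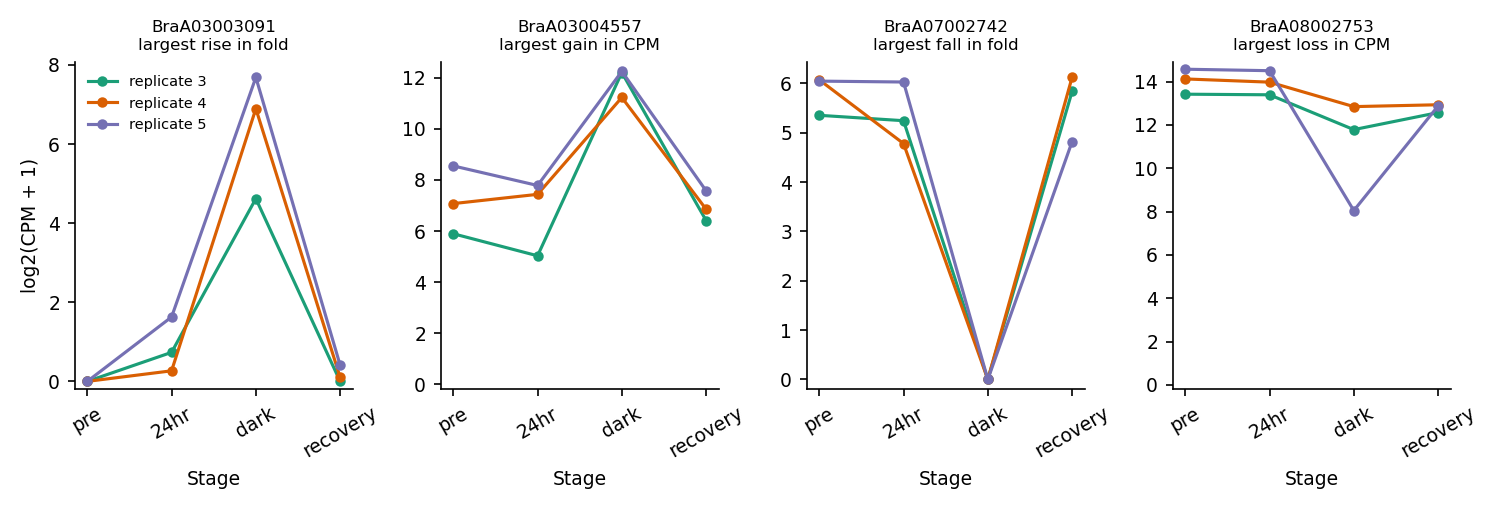
Level of the 4 named genes in the mutant at each stage, as log2(CPM + 1), with 1 line for each of the 3 plant pools. BraA03003091 and BraA03004557 peak at dark, BraA07002742 is at 0 at dark in every pool, and BraA08002753 falls far more in replicate 5 than in replicates 3 and 4.

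By a strict rule on counts, few genes were present at one of these stages only. Only 17 genes had 0 counts in every mutant pre library and at least 10 in every dark library, and 65 had the reverse. The rule uses raw counts, and the dark libraries held fewer in total, which favours pre-only genes. The dark-only genes reached 1.4 to 116 CPM, with a median of 5.31 CPM, at least 5.34 to 442-fold above the floor. The pre-only genes had 1.08 to 57.0 CPM with a median of 3.11 CPM, at least 3.68 to 194-fold above it. With up to 3 counts allowed at the other stage, the numbers were 90 and 319, and with 30 counts required they were 7 and 21. Of the 17 dark-only genes, 12 also had at least 10 counts in every wild-type dark library, and 5 met both conditions in the wild type. Of the 65 pre-only genes, 12 met both conditions there. None of the 17 had 10 counts in every mutant recovery library, and 29 of the 65 did. Yet only 2 of the 17 had 0 counts in all mutant recovery libraries. On the open leaf at 24hr, only 5 of the 17 had 0 counts in all mutant libraries. The others had some count there, but no smallest number was required, so this does not show expression on the open leaf. In the wild type, 7 of the 17 had 0 counts in every pre library.

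Fewer gene IDs had any count at dark. The number fell from 27854 to 26579 in replicate 3, from 28287 to 27549 in replicate 4 and from 27997 to 26368 in replicate 5. The dark libraries were also shallower, so each library was thinned to 7839529 counts, a step added after the data were seen. Then 27226, 27481 and 27242 IDs were expected at pre and 26014, 27296 and 26368 at dark. The mean change was -757 ± 523 IDs (SD, n = 3), lower in 3 of 3 pools (two-sided exact sign-flip permutation p 0.25, the smallest possible).

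The spread of counts over genes changed unequally among pools. In replicate 3, 1064 genes were needed to hold 50% of the counts at pre and 1096 at dark. The numbers went from 719 to 1271 in replicate 4 and from 585 to 1140 in replicate 5. Replicate 3 thus stood apart before darkness, not in it, and its 24hr library had 1082. The mean change was 380 ± 301 genes (SD, n = 3), higher in 3 of 3 pools (two-sided exact sign-flip permutation p 0.25, the smallest possible).

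**Figure D4:**
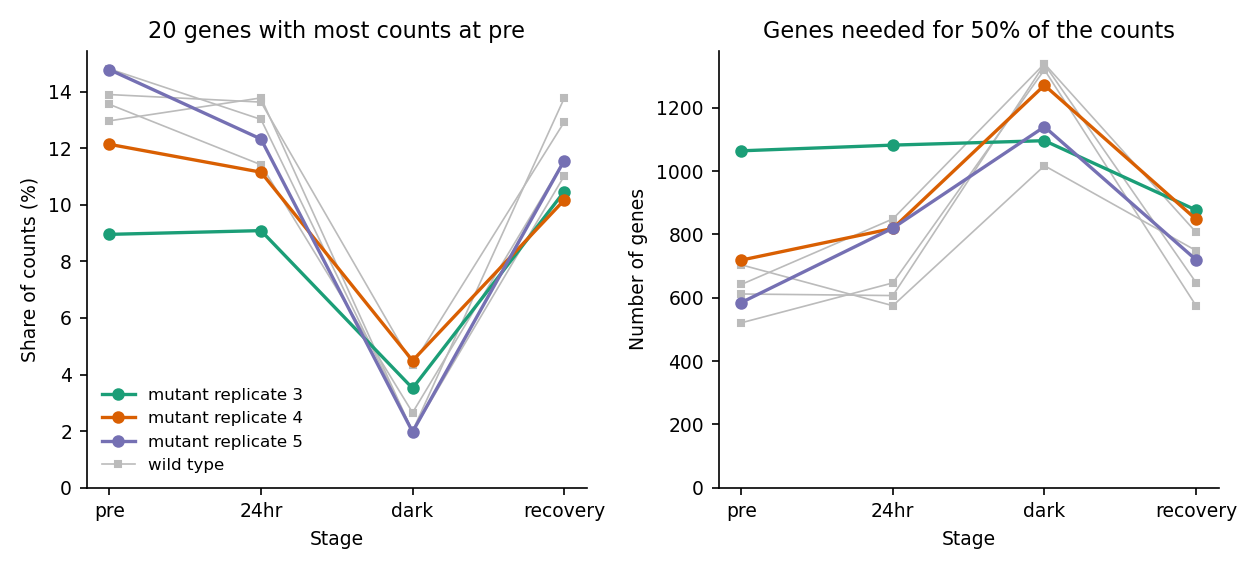
Left, share of counts in percent held by the 20 genes with most counts in the mutant at pre. Right, number of genes that together hold 50% of the counts. Coloured lines are the 3 mutant pools and grey lines the 4 wild-type pools, over the 4 stages. The share falls to between 1.98% and 4.49% at dark in the mutant, and mutant replicate 3 is the 1 mutant line that is nearly level from pre to dark on the right.

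Summed over genes, a large share of the counts moved to other genes. The share that changed gene between pre and dark, which is 50% of the summed absolute differences in count share, was 44.7% in replicate 3, 41.2% in replicate 4 and 52.7% in replicate 5. Between pre and 24hr of the same pools, which share the pre libraries, it was 8.73%, 7.71% and 13.9%. Different mutant pools at one stage differed by 13.3% to 18.6% at pre and by 14.3% to 16.2% at dark. Each dark change thus exceeded the spread between pools.

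The pools differed in how strongly they changed. Of all genes tested, 71.6% changed the same way in all 3 pools, and the dark and pre libraries did not overlap for 59.6%, beside the 58.3% called. Of the called genes, 14133 of 14560 (97.1%) changed the same way in all 3 pools, which describes the calls, since they were made from these pools. Across genes, the log2 changes of the pools correlated in pairs with a Pearson r of 0.75 to 0.82, as a description, since genes are not independent replicates. The slope of a pool's change on the mean of the other two was 0.87 in replicate 3, 0.71 in replicate 4 and 1.1 in replicate 5. Replicate 4 had the smallest change, with a median absolute log2 change of 0.86 against 1.07 in replicate 3 and 1.13 in replicate 5. Each pool carries its own letter in the sample descriptions (a, c and d), so these are also values within a letter. Over all genes tested, 71 rose at least 4-fold in 1 pool and fell at least 4-fold in another.

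The open leaf was sampled again 24 h after pre, which is a shorter time than the 72 h of the dark contrast and another leaf. From pre to 24hr, the median absolute log2 change was 0.28, 0.25 and 0.36 in replicates 3, 4 and 5, and 257, 234 and 899 genes differed at least 4-fold. From pre to dark, 5746, 4296 and 6654 did. The 2 contrasts share the pre libraries and differ in foil, leaf and time together. For the genes called higher at dark, the median log2 change from 24hr to dark was 1.39, 1.00 and 1.29 in the 3 pools. For those called lower it was -1.84, -1.30 and -1.85. These genes were called with the same dark libraries, so the sign of these medians is largely built in. With the 24hr libraries in place of pre, 14474 genes passed, 6746 higher and 7728 lower. That fit shares the dark libraries with the main one, and it compares the foiled leaf with the other leaf 48 h earlier.

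A gene that was not called was not always shown to be steady. Of the 10432 uncalled genes, 4024 (38.6%) had a 95% interval of the change that lay within 2-fold in both directions. They were moderately expressed, with a median of 17.4 CPM. The other 6408 had a median of 2.34 CPM, and a change of 2-fold or more was not detectable or not excluded at this depth and spread between pools. The estimate itself was at least 2-fold in 1583 of the uncalled genes.

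Called genes made up a similar share in each of the 11 ID series, which are given by the letters and digits that open the IDs. The share called ran from 57.2% in A04 to 59.3% in A05 among A01 to A10, and was 55.6% in the Sca series, close to the 58.3% of all genes. Rises made up 25.9% of tested genes in A04 and 29.7% in A05, the lowest and highest shares among A01 to A10. Among 5414 pairs of genes with consecutive ID numbers and both called, 2920 (53.9%) shared a direction, where the overall shares of rises and falls give 50.1%.

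The wild type served to ask which parts of the dark change were particular to the mutant. In the same fit, 15388 genes (61.6%) passed for dark against pre in the wild type, from separate libraries. The genotypes shared 12450 called genes, which are 85.5% of the mutant's and 80.9% of the wild type's, and 12433 of these had the same direction. Over all genes tested, the log2 changes of the genotypes correlated with a Pearson r of 0.88, as a description, so a shared sign was common. Among the 2110 genes called in the mutant alone, 1885 (89.3%) had the same sign in the wild type. Their median absolute log2 change was 1.19 in the mutant and 0.43 in the wild type, and the difference itself passed for 1 of them after adjustment. Without adjustment, the interaction p was under 0.05 for 501 of these 2110 genes and for 2195 of all 24992. These genes were chosen for passing in 1 genotype and not in the other, so a gap between genotypes is partly built in.

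**Figure D5:**
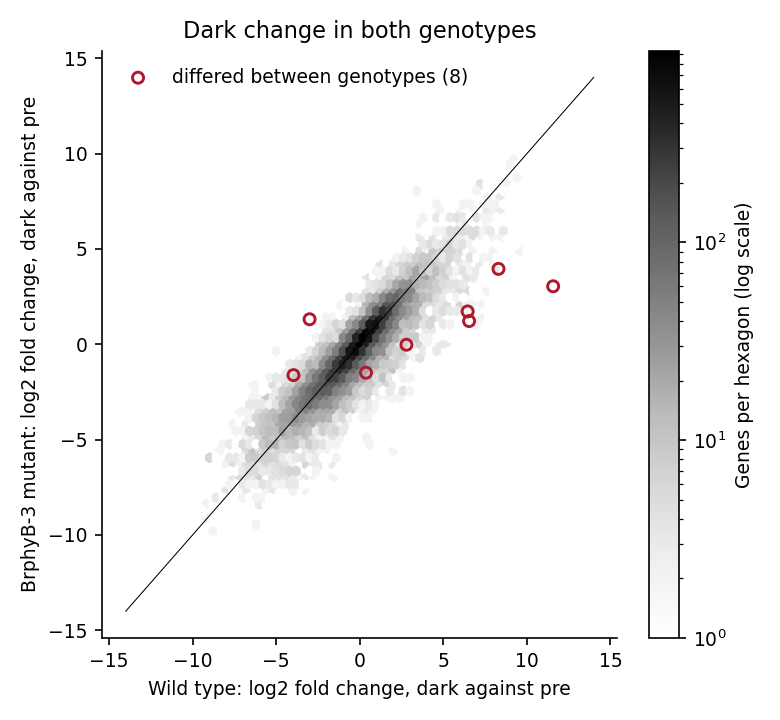
Log2 fold change of dark against pre in the mutant (vertical axis) against that in the wild type (horizontal axis), with shading for the number of genes on a log scale, a line for equal change, and red circles for the 8 genes whose change differed between genotypes. Most genes lie along the line, and 6 of the 8 circles lie below it.

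The dark change itself differed between genotypes for 8 genes (0.0320% of those tested) by edgeR's quasi-likelihood test of the interaction with Benjamini-Hochberg adjustment, 6 with a lower log2 change in the mutant and 2 with a higher one. In 3 of the 8, the wild type had at most 3 counts in each pre library while the mutant mean at pre was 17.4, 10.4 and 1.79 CPM. At dark the mutant had 55.8, 80.1 and 3.56 CPM, a rise that passed for the first and second of these genes but not for the third (edgeR adjusted p 0.0747). The wild type rose to 31.6, 33.6 and 22.2 CPM. Fitted sizes of these differences depend on the prior count. In 1 gene the mutant fell from 160 ± 28.2 to 56.9 ± 11.4 CPM (SD, n = 3) while the wild type had 123 ± 7.28 CPM at pre and 165 ± 57.3 CPM at dark (SD, n = 4). The log2 change differed by -1.86 with an SE of 0.29 and an edgeR adjusted p of 0.0193. In another the mutant had 20.8 ± 8.34 CPM at pre and 18.9 ± 0.776 CPM at dark (SD, n = 3) and did not pass, while the wild type went from 5.10 ± 2.85 to 35.4 ± 8.74 CPM (SD, n = 4), a difference of -2.81 with an SE of 0.49 and an edgeR adjusted p of 0.042.

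This count was not firm. The DESeq2 Wald test gave 81 genes, the fit without the pool block 3, and leaving out wild-type replicate 4, 5 or 6 gave 1 each. It was 2 without mutant replicate 3 and 5 without mutant replicate 4. On simulated counts the same test found 5 of 100 differences of 2-fold and 55 of 100 of 4-fold, and called 4 unchanged genes. For the remaining genes the design bounds the difference only in part: the 95% interval of the difference lay within 2-fold for 7858 genes (31.4%), and the median SE of the difference was 0.46.

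Measures that sum the dark change of a pool into 1 value were compared between genotypes over pools. The median absolute log2 change was 1.02 ± 0.142 in the mutant (SD, n = 3) and 1.02 ± 0.195 in the wild type (SD, n = 4), where the exact permutation test over pools (two-sided) gave p = 1. The share of counts that changed gene was 46.2% ± 5.87 (SD, n = 3) and 48.1% ± 5.61 (SD, n = 4), with an exact permutation p of 0.686. The 20 genes with most counts at pre over both genotypes fell by 9.05 percentage points ± 3.95 (SD, n = 3) in the mutant and by 11.7 ± 1.34 (SD, n = 4) in the wild type, with an exact permutation p of 0.257. The number of genes holding 50% of the counts rose by 380 ± 301 (SD, n = 3) and 634 ± 218 (SD, n = 4), with an exact permutation p of 0.286. Adjusted over these 4 comparisons by the Benjamini-Hochberg method, the exact permutation p-values ran from 0.571 to 1, and the smallest p of the 35 splits of 7 pools is 0.0286. None of the 4 passed, which does not show that the genotypes acted alike.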

How the data were processed

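Poly(A) RNA was measured in 28 leaf libraries, per the labels' protocols. Per the submitters' processing notes, bcl2fastq 2.17.1.14, Trimmomatic 0.36, Bowtie2 and HTSeq were used. Their settings, the genome build, the annotation and the use of strand are not given in the sources used here. Genes with close copies, overlaps or antisense partners therefore have uncertain counts. The authors deposited raw counts per gene ID and library, with no normalization, and 0 columns lacked a sample. Of 48826 IDs, 12503 had no count in any library. The filterByExpr function of edgeR 4.0.16 in R 4.3.3 kept 24992 IDs with 99.9% of the counts. TMM factors were used, and CPM are scaled with them. One model with 7 plant pools and stage effects in each genotype was fitted to all 28 libraries by edgeR's quasi-likelihood method. The other groups were kept because the 6 libraries alone leave 2 residual degrees of freedom. Adjusted p-values under 0.05 were called. Each SE was derived from the log2 fold change and its F statistic. Pool values use log2 CPM with a prior count of 2. On simulated counts with 23764 genes, the mutant dark against pre test found 82% of 4-fold and 19% of 2-fold changes, and the test of the genotype difference found 55 and 5 of 100. Only 100 genes changed by each size there, and no pool differences were simulated. In the data 14560 genes passed for mutant dark against pre, so the adjustment was less strict. The 82% and 19% therefore do not measure how many changes that contrast missed.

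Per the labels' protocols, one set of plants gave all libraries of a number within a genotype. In the mutant their deviations from the group means correlated between pre and dark by -0.04 to 0.16. Libraries of different pools gave -0.19 to 0.11, with a median of -0.03. The ranges overlapped, and deviations from a shared group mean are tied to each other, so these values do not settle the pairing. No pair of mutant libraries was a repeat, since their chi-square per gene was 8.17 or more. Floors of 3 counts cover counting error only, as the libraries had no molecular identifiers. The intervals of the log2 changes and of their differences between genotypes rest on the SE from the edgeR fit. That SE takes in the spread between pools as well as counting error.

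The comparison, gene lists, tests and alternatives were chosen with earlier results of these data known. The named genes are those with the highest and lowest log2 fold change and with the greatest gain and loss of CPM, among the 9209 called genes with a mean of at least 10 CPM at one stage, the same direction in all 3 pools and no overlap between stages. Alternatives were the DESeq2 1.42.0 Wald test, other scaling, no filter, other sets of libraries, no block, another reference stage and other cut-offs. The older edgeR quasi-likelihood fit and the thinning of libraries were added after the data were seen.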

Additional observations from a re-analysis of the deposited data

Results flagged for a closer look

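The dark change differed between genotypes for 8 genes by the interaction term, which is why this count is listed here. Among 13 sets of 4 wild-type values, 3 had 1 library far from the other 3. Chance gives about 1 in 20 for measured values, but not for the BraA03003091 and BraA07002742 sets, where any count beside 3 libraries at 0 is listed. The wild-type dark library of replicate 3 needed 1017 genes to hold 50% of the counts, the lowest of its group. BraA03003091 had 0.243 CPM, from 2 counts, in 1 wild-type pre library and 0 in the other 3. BraA07002742 had 0.0952 CPM, from 1 count, in 1 wild-type dark library and 0 in the other 3. Their causes were not tested.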

How the results depend on the processing

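The number of genes called in mutant dark against pre kept within 1.5 times of 14560 in all 11 alternatives, from 10830 with only the groups compared to 14737 with DESeq2, and from 11479 to 13363 without 1 mutant pool. That with at least 2-fold change ran from 9325 to 11367. Without the replicate block, 13870 and 10953 genes passed, and 3 for the genotype difference, against 8 with it. The genotype difference gave 81 with the DESeq2 Wald test, 5 with the older edgeR fit, 3 with only the groups compared, and 1 to 8 without 1 pool. The cause was not tested. Genes present at one stage only numbered 7 (dark) and 21 (pre) with 30 counts required and 90 and 319 with up to 3 counts allowed. The fall in count share was -15.6 percentage points for 100 leading genes and -10.7 to -6.16 without 1 pool. Of 48 alternative values of the named genes, 46 stayed past the threshold and 0 changed sign. The 2 that did not are those given for BraA08002753. The values fitted with a prior count of 2 keep the adjusted p of the main fit, so they could not fail. Depth limits the calls among genes of low counts.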
